A study of Mus musculus with 4 samples.

Results

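Heat-shock proteins and their co-chaperones were examined in sorted kidney nephron progenitors of the mouse, as 84 genes of the 24339 in the deposited table. Members were chosen by symbol alone: the Hspa, Hspb, Hsp90 and Dnaja, Dnajb and Dnajc families, Hspd1, Hspe1, Hsph1, Bag1 to Bag6, the heat-shock factors Hsf1 and Hsf2, and the HSP90 partners Stip1, Ahsa1, Chordc1 and Fkbp4. The study compared Six2TGC, a line with a GFP-Cre fusion on a BAC (bacterial artificial chromosome) transgene, with Six2Cre, a knock-in of a GFP-Cre cassette at Six2 labelled Six2 Cre/+ and so heterozygous. Six2 is a transcription factor gene of mesenchymal nephron progenitors, the cells that form the nephron. Both lines make GFP-Cre, so neither is a line without it, and GFP-positive cells of both were isolated by FACS from kidney. Polyadenylated RNA was sequenced in 4 libraries, 2 per line. The name of the deposited table marks the cells as E18 (embryonic day), and the labels give no age, no pooling of animals and no statement that replicates are different animals, so every p-value covers no more than library-to-library spread, which may be technical.

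Heat-shock proteins are molecular chaperones that hold unfolded proteins and help them fold. HSP70 proteins bind short stretches of unfolded chain and are driven by J-domain partners (the DNAJ families), which start their ATP cycle, and by exchange factors such as BAG and HSP110 proteins, which release the nucleotide. HSP90 finishes selected clients with the help of co-chaperones, and HSPD1 with its lid HSPE1 forms a folding chamber in mitochondria. The cytosol, the endoplasmic reticulum (ER) and mitochondria each have chaperones of their own. Heat and other protein damage activate the factor HSF1, which raises many cytosolic and some mitochondrial chaperone genes, whereas damage in the ER acts through the unfolded protein response.

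Values are FPKM (fragments per kilobase of gene, scaled to library size), which correct for gene length, so levels of different genes can be set side by side. FPKM summed to 483087 and 481665 over all genes in the Six2TGC libraries, against 549971 and 537366 in the Six2Cre pair. From the steps between the lowest values, depth was 0.958 in Six2TGC replicate 2 and 1.85 and 1.88 in Six2Cre replicates 1 and 2, relative to Six2TGC replicate 1. The defining progenitor markers were present in all libraries, with Six2 at FPKM 749 and 816 in Six2TGC, against 545 and 533 in Six2Cre. Of 12 such markers, 7 were lower and 2, among them Six2, higher in Six2TGC. The largest differences were on the lower side. Cited1 stood at FPKM 109 and 94.6 in Six2TGC, against 907 and 878 in Six2Cre, and Meox1 at 20.6 and 14.2 against 62.4 and 64.3. Summed FPKM of markers of other kidney cells was low and differed between the lines without overlap. The 10 stroma markers summed to 149 and 123 in Six2TGC against 112 and 79.9 in Six2Cre, with 3 higher and 1 lower of 8 tested. Conversely, 9 ureteric and collecting duct markers summed to 33.5 and 27.4 against 51.7 and 54.4, and 8 endothelial markers to 14.6 and 11.3 against 20.8 and 19.3. For 10 blood and immune markers the sums were 17.9 and 15.4 against 30.5 and 24.1, and for 10 proximal tubule and podocyte markers 14.8 and 12.1 against 26.4 and 17.96. In these last lists 3 of 4 tested were lower for the ureteric set, 0 of 1 for the endothelial, 1 of 3 for blood and 2 of 4 for tubule and podocyte. Their part in the results below was not tested, and in bulk RNA fewer cells of a type cannot be told apart from less RNA per cell.

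A few chaperone genes of the cytosol and of mitochondria were lower in Six2TGC progenitors, and most members had no call. The J-domain gene Dnajb1 was 3.64-fold lower, its relative Dnajb4 2.48-fold lower and Hsp90aa1 1.73-fold lower in Six2TGC. Among the mitochondrial members, the chaperonin genes Hspe1 and Hspd1 were 1.45-fold and 1.40-fold lower. Of the 84 members, 73 reached a mean FPKM of 1 over the 4 libraries and were tested with limma on log2(FPKM + 1), with p-values adjusted by Benjamini-Hochberg over all 11917 genes tested. At an adjusted p under 0.05, 14 members were lower, 2 were higher and 57 had no call. The share called lower was 19.2% of members against 13.5% of all genes tested, and the share called higher 2.74% against 10.8%. In either direction, 21.9% of members had a call, near the 24.3% of all genes tested. The median difference, Six2TGC minus Six2Cre, was -0.13 over tested members and -0.031 over all genes tested. Both Six2TGC libraries lay below both Six2Cre libraries for 35 members and above them for 10, against 36.4% and 29.5% of all genes tested. The count of lower members was 7 without Six2Cre replicate 2, and that of higher members 0 without either Six2Cre library.

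**Figure D1:**
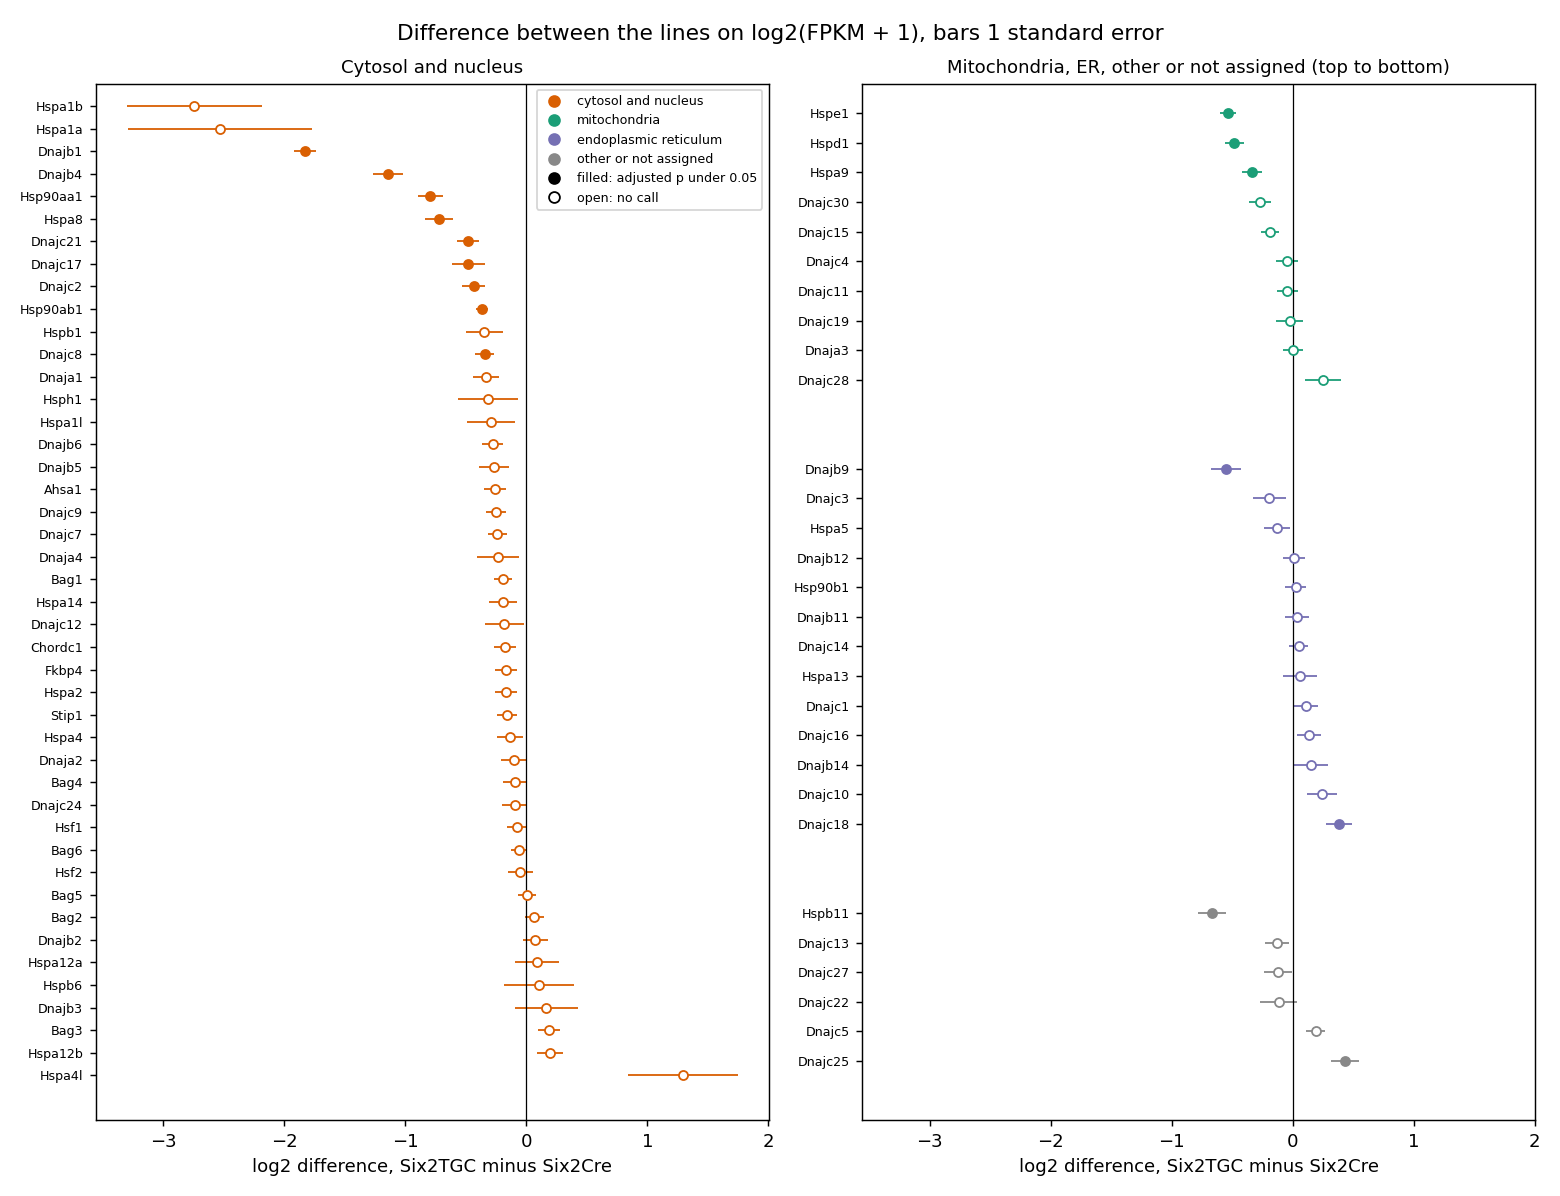
Difference between Six2TGC and Six2Cre for the 73 tested members on the log2(FPKM + 1) scale, with bars of 1 standard error, grouped by the compartment of the protein and filled where the limma adjusted p is under 0.05. Cytosolic members lie mostly left of 0 (35 of 44), whereas 10 of 13 ER members lie right of it. Several of those ER members lie within 1 standard error of 0.

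By compartment, 9 of 44 tested cytosolic and nuclear members were lower and 0 higher, with a median of -0.19. Whatever their p, 35 of the 44 (79.5%) had a negative difference, against 54.3% of all genes tested. At an unadjusted p under 0.05 in limma, 16 (36.4%) were lower and 0 higher, where 21.1% and 16.5% of all genes were. Of 10 mitochondrial members, 3 were lower and 0 higher, with a median of -0.12. Of 13 ER members, 1 was lower and 1 higher, with a median of 0.051. Positive differences were found for 10 of the 13 (76.9%), against 45.7% of all genes tested. Several of these lay within 1 standard error of 0, such as Dnajb12 (0.010 ± 0.0897 SE) and Hsp90b1 (0.026 ± 0.0862). At an unadjusted p under 0.05 in limma, 1 ER member (7.69%) was higher and 1 lower. Among the 6 tested members of other or unassigned location, 1 was lower and 1 higher. Summed FPKM of the cytosolic members was 3808 and 4095 in Six2TGC, against 5161 and 5157 in Six2Cre. Hsp90ab1 and Hspa8 alone gave 2302 and 2459 of these sums in Six2TGC, against 3222 and 3217 in Six2Cre. The cytosolic sum therefore reports mostly these 2 genes, and summed FPKM of all genes was also lower in Six2TGC. For the mitochondrial members the sums were 577 and 601 against 765 and 763, and for the ER members 620 and 709 against 664 and 703. The lines thus did not overlap in the cytosolic and mitochondrial sums and overlapped in the ER sum. The compartment medians kept their signs under both other scalings, and 6 cytosolic members were lower under quantile normalization. A test of the difference between compartments was not made.

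The inducible HSP70 genes Hspa1a and Hspa1b, a neighbouring pair on chromosome 17 (mm10, chr17:34969359-34972156 and chr17:34956429-34959238), had the largest differences of all members. Hspa1a stood at FPKM 1.45 and 1.66 in Six2TGC, against 7.16 and 25.6 in Six2Cre. Hspa1b stood at 2.54 and 2.86 in Six2TGC, against 14.8 and 37.9 in Six2Cre. The lines did not overlap for either gene, but the Six2Cre libraries differed from each other 3.58-fold for Hspa1a and 2.56-fold for Hspa1b. With that spread neither had a call (Hspa1a log2 difference -2.53 ± 0.760 SE, limma adjusted p = 0.145; Hspa1b -2.74 ± 0.560, 0.0693). Leaving out either Six2Cre library, which leaves that line with 1 library whose spread is assumed to be like that of other genes, gave a call for both. The differences were then -3.38 and -1.68 for Hspa1a and -3.39 and -2.09 for Hspa1b, without Six2Cre replicate 1 and replicate 2 in turn. In the authors' deposited table both were significant, with q = 8.73e-04 each. Their coding sequences are identical at 1918 of 1926 aligned bases, so reads can be shared between the copies and single values are uncertain. Summed over the pair, FPKM was 3.99 and 4.52 in Six2TGC against 21.9 and 63.5 in Six2Cre, and the sum, tried after the data were seen, had no call either (log2 difference -2.87, limma adjusted p = 0.111).

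Sequences upstream of some members that stood lower are shown here as background, because HSF1 raises many chaperone genes. Like Hspa1a and Hspa1b, the heat-inducible members Hsph1 (log2 difference -0.32) and Bag3 (0.19) had no call, and their windows are not printed. A part of HSF1 in the differences was not tested. Each run is the 250 bases before the annotated start (RefSeq, GRCm38.p6), read 5′ to 3′ on the gene's strand. Capitals mark exact matches to the heat-shock element, which HSF1 binds, as GAANNTTC or TTCNNGAA. The windows are chr17:34972157-34972406 (minus strand, Hspa1a), chr17:34959239-34959488 (minus, Hspa1b), chr3:152193846-152194095 (minus, the second listed start of Dnajb4), chr1:55087898-55088147 (plus, Hspe1) and chr8:83607925-83608174 (plus, Dnajb1).
Hspa1a: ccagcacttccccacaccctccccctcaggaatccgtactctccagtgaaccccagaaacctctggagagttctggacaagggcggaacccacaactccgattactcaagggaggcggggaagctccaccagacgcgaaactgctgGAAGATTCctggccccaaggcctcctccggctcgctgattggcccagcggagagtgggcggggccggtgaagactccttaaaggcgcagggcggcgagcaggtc
Hspa1b: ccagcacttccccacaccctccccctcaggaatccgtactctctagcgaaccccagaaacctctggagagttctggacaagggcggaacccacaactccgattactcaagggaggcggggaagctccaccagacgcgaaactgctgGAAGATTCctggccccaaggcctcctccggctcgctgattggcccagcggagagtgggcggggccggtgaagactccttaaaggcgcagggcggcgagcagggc
Dnajb4: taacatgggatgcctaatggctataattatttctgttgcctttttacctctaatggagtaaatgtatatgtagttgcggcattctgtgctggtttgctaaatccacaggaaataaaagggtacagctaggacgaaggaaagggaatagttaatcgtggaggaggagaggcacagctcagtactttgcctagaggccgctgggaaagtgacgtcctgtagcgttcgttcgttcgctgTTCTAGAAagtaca
Hspe1: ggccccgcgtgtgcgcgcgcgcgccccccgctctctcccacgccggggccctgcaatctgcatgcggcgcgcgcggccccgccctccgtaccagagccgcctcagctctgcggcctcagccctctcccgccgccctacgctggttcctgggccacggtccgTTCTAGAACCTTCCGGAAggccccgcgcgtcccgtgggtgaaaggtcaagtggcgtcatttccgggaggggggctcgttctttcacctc
Dnajb1: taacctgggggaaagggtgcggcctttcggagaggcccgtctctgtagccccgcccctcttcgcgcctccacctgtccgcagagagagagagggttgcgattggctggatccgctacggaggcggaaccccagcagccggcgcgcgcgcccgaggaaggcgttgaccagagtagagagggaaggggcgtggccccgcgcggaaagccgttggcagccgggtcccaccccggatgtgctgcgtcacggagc
The windows of Hspa1a and Hspa1b are identical at 247 of 250 positions and hold the same match, from -104 to -97 relative to the start. The Hspe1 window holds overlapping matches from -89 to -72, and the Dnajb4 window holds a match from -14 to -7. For genes with several listed starts, the window with the most matches was printed. The other listed start of Dnajb4 holds no match. The printed Dnajb1 window holds neither spelling.

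The heat-shock element was searched in the same window of every promoter in the RefSeq table. Since each spelling is its own reverse complement, both strands were covered. Of 84 members, 68 had a window in the table, with 86 windows over all their annotated starts. Not in the table were Bag4, Dnajc2, Dnajc5, Dnajc5b, Dnajc11, Dnajc12, Dnajc18, Dnajc22, Dnajc30, Hsf1, Hsp90aa1, Hsp90ab1, Hspa8, Hspa9, Hspa13 and Hspb2. A match was found for 15 of the 68 (22.1%), against 14.5% of 27025 genes and 12.8% of 32851 promoters. A longer element of 3 units, in which GAA and TTC alternate with any 2 bases between them and which contains matches of the shorter one, was found for 3 members, Hspd1, Hspe1 and Dnajb6, and for 0.514% of genes and 0.466% of promoters. Of the 9 members called lower that are in the table, 3 held the shorter element at some listed start: Hspd1, Hspe1 and Dnajb4. Hspd1 and Hspe1 hold the same stretch seen from either side, so theirs are not separate sites for either element. The rest of the 15 members with a match, among them Hsph1, Hspb1, Dnaja1, Dnajb6 and Fkbp4, were not called lower. A match is a run of letters, not a measured binding site.

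**Figure D2:**
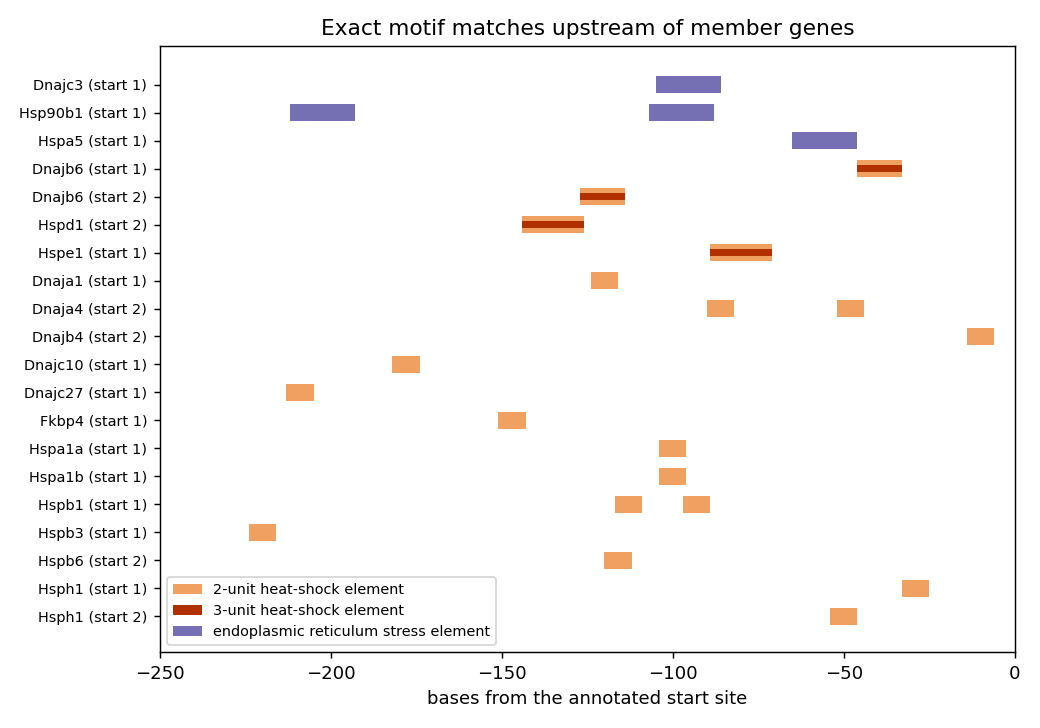
Position of each exact match in the 250 bases upstream of member genes, by annotated start, with the shorter heat-shock element in light orange, the longer one in dark red and the ER stress element in violet. The ER stress element appears for Hspa5, Hsp90b1 and Dnajc3 only, and Hspd1 and Hspe1 hold the same element seen from either side.

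Among the other HSP70 genes, Hspa8, which encodes the constitutive cytosolic form HSC70, was the most abundant. It stood at FPKM 384 and 490 in Six2TGC, against 702 and 731 in Six2Cre, with no overlap. The difference was -0.72 ± 0.115 SE (limma adjusted p = 7.36e-03), and the call was lost without Six2Cre replicate 2 (-0.69, adjusted p = 0.0512) and under quantile normalization (-0.44, 0.0753). Hspa1a and Hspa1b together amounted to 1.04% and 0.922% of the Hspa8 level in Six2TGC, against 3.13% and 8.68% in Six2Cre. Other cytosolic HSP70 genes had no call. Hspa14, of the ribosome-associated chaperone complex, stood at 26.2 and 33.4 in Six2TGC against 33.8 and 34.1 in Six2Cre. The remaining genes of the family in the cytosol ranged from -0.29 (Hspa1l) to 0.20 (Hspa12b), and Hspa12b shares its listed locus with another gene.

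HSP110 proteins release nucleotide from HSP70. Hspa4l stood at FPKM 5.56 and 13.9 in Six2TGC, against 3.22 and 2.84 in Six2Cre, a 3.21-fold higher mean with no overlap. Its Six2TGC libraries differed 2.50-fold and it had no call (log2 difference 1.30 ± 0.455 SE, limma adjusted p = 0.138). Without Six2TGC replicate 1 or replicate 2 the difference was 1.89 or 0.71, with a call in both, and in the authors' deposited table it was significant (q = 8.73e-04). Hsph1, the heat-inducible relative, stood at 19.5 and 31.5 in Six2TGC, against 29.5 and 32.8 in Six2Cre, so the lines overlapped. Its difference of -0.32 (adjusted p = 0.421 in limma) was 0.017 without Six2TGC replicate 1 and -0.65, with a call, without Six2TGC replicate 2. Hspa4 had no call either, at 50.3 and 62.5 against 60.9 and 62.2.

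**Figure D3:**
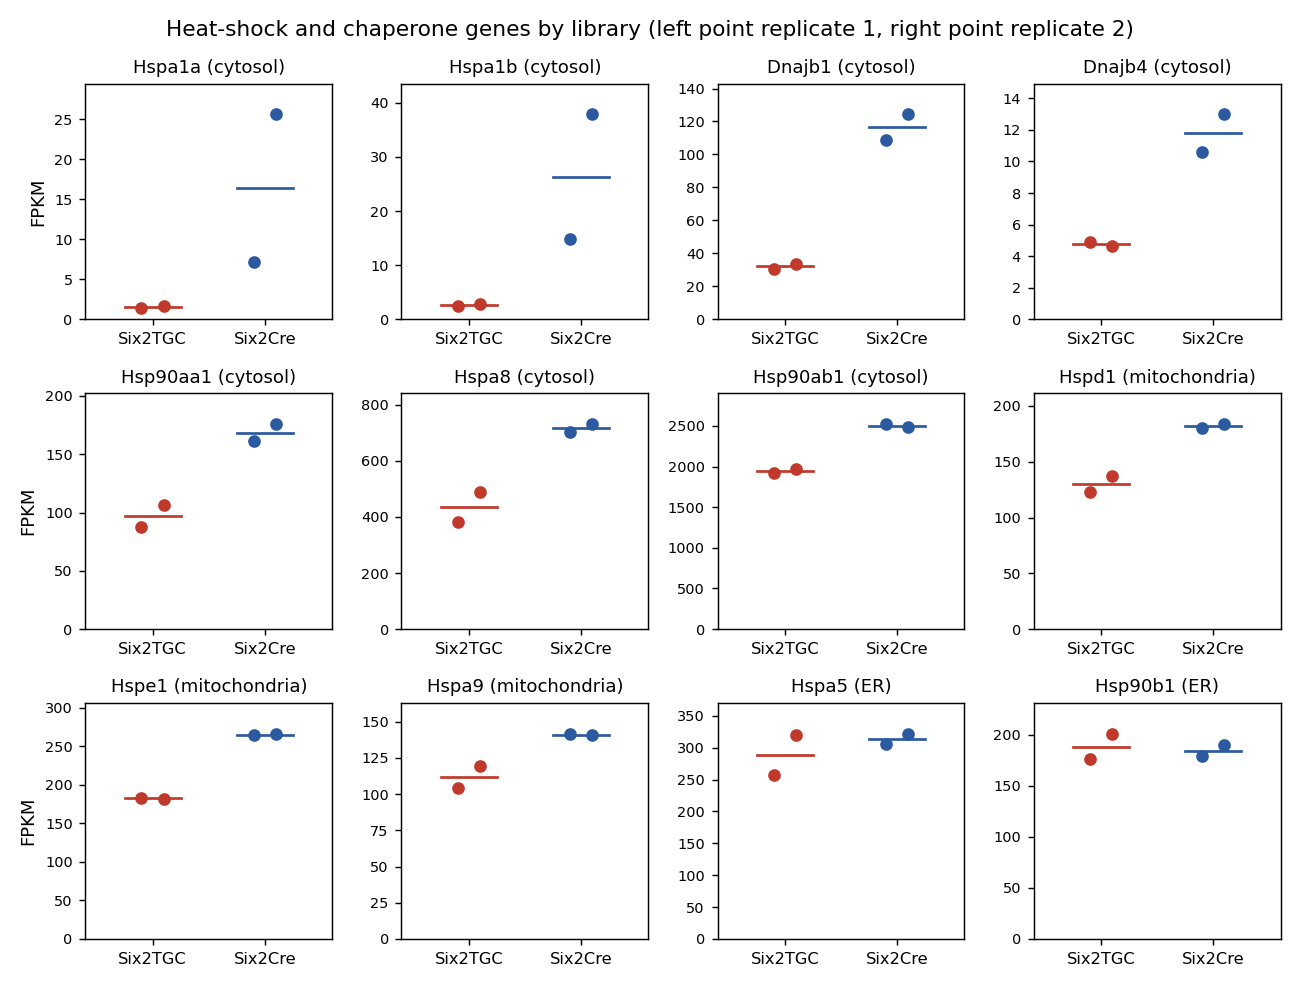
FPKM of 12 members in each library, with Six2TGC left and Six2Cre right, points for libraries and a line at the mean of each pair, on axes that start at 0. Both Six2TGC points lie below both Six2Cre points for all but Hspa5 and Hsp90b1, and the Six2Cre points of Hspa1a and Hspa1b lie far apart.

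Of 3 HSP90 genes, 2 were lower. The stress-inducible cytosolic form Hsp90aa1 stood at FPKM 87.9 and 106 in Six2TGC, against 161 and 176 in Six2Cre, with a log2 difference of -0.79 ± 0.104 SE (limma adjusted p = 2.18e-03). The libraries of the lines did not overlap. The constitutive form Hsp90ab1, the most abundant member, stood at 1918 and 1970 in Six2TGC, against 2521 and 2486 in Six2Cre. Its difference of -0.36 (adjusted p = 2.63e-03 in limma) became 0.085 with no call under quantile normalization, and the authors' deposited table gave q = 0.527. Hsp90aa1 thus amounted to 4.58% and 5.40% of the Hsp90ab1 level in Six2TGC and to 6.40% and 7.07% in Six2Cre. Hsp90b1, which encodes the ER form GRP94, stood at 176 and 201 against 179 and 190, where the libraries of the lines overlapped (0.026, adjusted p = 0.847 in limma). Hsp90ab1 sits at a level where most genes were lower. Of 114 genes above 9 in mean log2(FPKM + 1), 73.7% were called lower, with a median of -0.39, and the members there are Hsp90ab1 and Hspa8. From 6 to 9, where Hsp90aa1 lies, 24.9% of all genes and 5 of 13 members were lower. The median of all genes there was -0.092. Below that range, from 3 to 6, 12.6% of all genes and 7 of 45 members were.

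**Figure D4:**
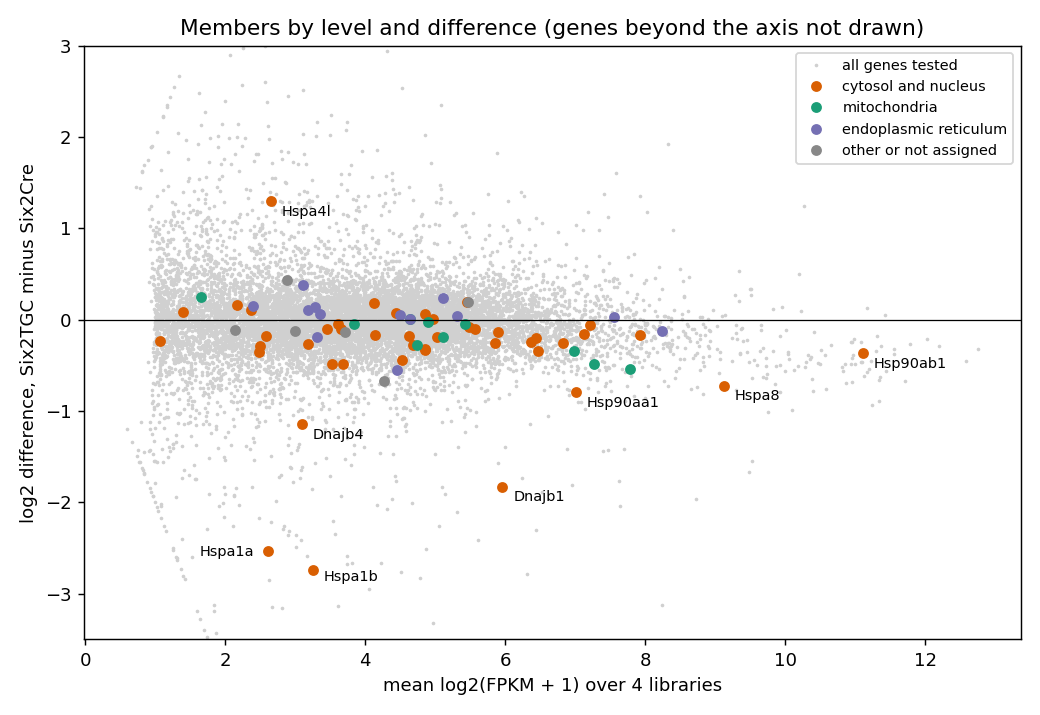
Log2 difference between Six2TGC and Six2Cre against mean log2(FPKM + 1), with all 11917 tested genes in grey and the members coloured by compartment. Dnajb1, Dnajb4, Hspa1a and Hspa1b lie below the bulk of genes of like level, whereas Hsp90ab1 lies within the downward drift of the most abundant genes.

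HSP90 co-chaperones had 0 calls of 4 tested, in limma as in the authors' deposited table, and 1 was lower at an unadjusted p under 0.05, although both Six2TGC libraries lay below both Six2Cre libraries for all 4. Ahsa1, which encodes the activator of the HSP90 ATPase, stood at FPKM 95.3 and 111 in Six2TGC against 127 and 119 in Six2Cre (log2 difference -0.26, limma adjusted p = 0.0817), and was called without Six2TGC replicate 2 (-0.36). Chordc1 (-0.18), the immunophilin gene Fkbp4 (-0.17) and Stip1 (-0.16), whose product links HSP70 with HSP90, lay closer together. The heat-shock factors hardly differed in mean. Hsf1 stood at 40.0 and 45.2 in Six2TGC, against 45.9 and 43.9 in Six2Cre, and Hsf2 at 10.4 and 11.6 against 11.0 and 11.9. Both overlapped between the lines, and neither had a call (-0.077 and -0.050). RNA levels do not report HSF1 activity, which is set largely by the state of the protein.

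J-domain genes of the B class held the largest called differences. Dnajb1, the main partner of inducible HSP70, stood at FPKM 30.7 and 33.4 in Six2TGC, against 109 and 124 in Six2Cre (log2 difference -1.83 ± 0.0912 SE, limma adjusted p = 3.18e-05). Dnajb4 stood at 4.87 and 4.65 against 10.6 and 12.98 (-1.15 ± 0.126, adjusted p = 9.41e-04 in limma). The lines were well apart for both, and both calls held without any single library. Dnajb1 amounted to 7.99% and 6.82% of the Hspa8 level in Six2TGC, against 15.5% and 17.01% in Six2Cre. Dnajb9, which encodes the ER protein ERdj4, a partner of BiP, stood at 18.1 and 16.1 in Six2TGC against 22.7 and 28.7 in Six2Cre (-0.55, adjusted p = 0.0182 in limma). That call held only without Six2Cre replicate 1, at -0.72, and was lost in the other 3 fits that left out a library, with no filter (adjusted p = 0.0516 in limma) and with plain empirical Bayes (0.0577). Dnajb5 (-0.27) and Dnajb6 (-0.28), both cytosolic, had no call. Nor had the ER members Dnajb11 (0.036), Dnajb12 (0.010) and Dnajb14 (0.15), or Dnajb2 (0.073) and Dnajb3 (0.17), which lay on the other side.

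In the A class, 0 of 4 tested members had a call in limma or in the authors' deposited table, and 1 was lower at an unadjusted p under 0.05. Dnaja1, a farnesylated partner of HSC70, stood at FPKM 22.5 and 27.4 in Six2TGC, against 32.7 and 30.6 in Six2Cre, without overlap (log2 difference -0.34, limma adjusted p = 0.0569). It was called without Six2TGC replicate 2 (-0.47) and when the level for testing was a mean FPKM of 5, and it shares its listed locus with another gene. The more abundant Dnaja2 stood at 40.2 and 49.5 against 47.4 and 48.6 and had no call. Dnaja3, the mitochondrial member, stood at 23.4 and 24.5 against 24.6 and 23.1, and Dnaja4 at 1.07 and 0.794 against 1.35 and 1.19.

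The C class, whose members share little beyond the J domain, gave 4 lower and 2 higher genes of 25 tested. Dnajc21, a factor of ribosome assembly, stood at FPKM 9.75 and 9.97 in Six2TGC against 14.3 and 14.1 in Six2Cre (log2 difference -0.48, limma adjusted p = 8.95e-03). Dnajc2, the ribosome-bound partner of HSPA14, stood at 17.4 and 20.4 against 26.3 and 25.4 (-0.44). Both calls were lost without either Six2Cre library, at -0.47 and -0.50 for Dnajc21 and -0.41 and -0.46 for Dnajc2. The other lower genes encode nuclear proteins tied to splicing. Dnajc8 stood at 78.8 and 76.8 in Six2TGC against 103 and 94.9 in Six2Cre (-0.34), and Dnajc17, which shares its listed locus, at 9.71 and 7.89 against 14.0 and 11.4 (-0.48). Their calls did not hold when Six2TGC replicate 2 or either Six2Cre library was left out, with differences of -0.41 to -0.28 for Dnajc8 and -0.62 to -0.35 for Dnajc17, whose call was also lost under both other scalings and with no filter (limma adjusted p = 0.0877). With plain empirical Bayes the adjusted p in limma was 0.084 for Dnajc17, 0.0596 for Dnajc8 and 0.0521 for Dnajc2.

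On the higher side were Dnajc25 and Dnajc18, which encodes a protein of the ER membrane. Dnajc25 stood at FPKM 7.71 and 7.50 in Six2TGC against 5.61 and 5.14 in Six2Cre (log2 difference 0.43, limma adjusted p = 0.0310). Dnajc18 stood at 9.06 and 8.65 against 6.68 and 6.44 (0.38, adjusted p = 0.0365 in limma). The libraries of the lines were apart for both, yet leaving out any library ended both calls, with differences of 0.38 to 0.49 and 0.35 to 0.41. With no filter the adjusted p in limma was 0.0512 for Dnajc25 and 0.0561 for Dnajc18. In the authors' deposited table none of these 6 C-class genes was significant, with q from 0.0712 for Dnajc2 to 0.411 for Dnajc17. The co-chaperone gene Dnajc7 (-0.24, adjusted p = 0.0562 in limma) and the histone chaperone gene Dnajc9 (-0.25) had no call. Nor had Dnajc5, whose product sits on secretory vesicles, at 47.9 and 44.6 against 41.3 and 39.5.

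In mitochondria, the chaperonin Hspd1 (HSP60) and its lid Hspe1 (HSP10) were measured from a divergent gene pair on chromosome 1, with Hspd1 at chr1:55077834-55087932 and Hspe1 at chr1:55088148-55091317 in mm10. Hspe1 stood at FPKM 183 and 182 in Six2TGC, against 264 and 266 in Six2Cre (log2 difference -0.54 ± 0.0664 SE, limma adjusted p = 1.55e-03). Hspd1 stood at 123 and 137 against 180 and 184 (-0.48 ± 0.0786, adjusted p = 5.05e-03 in limma). The ratio of Hspe1 to Hspd1 was 1.49 and 1.33 in Six2TGC, against 1.46 and 1.45 in Six2Cre, so both genes stood lower to a like degree. The Hspd1 call was lost without Six2Cre replicate 1 (-0.50, adjusted p = 0.0514) and replicate 2 (-0.47, 0.0543), while that of Hspe1 held. Hspa9, the mitochondrial HSP70 mortalin, stood at 104 and 119 against 142 and 141 (-0.34, adjusted p = 0.0272 in limma), a call lost without Six2TGC replicate 1 (-0.24) and without Six2Cre replicate 1 (-0.33) or 2 (-0.34). The Hspa9 call was also lost under quantile normalization (-0.23, adjusted p = 0.0836 in limma), with no filter (0.0581) and with plain empirical Bayes (0.0808), and the authors' deposited table gave q = 0.146. The other 7 mitochondrial members, all J-domain genes, had no call and ranged from -0.27 (Dnajc30) to 0.25 (Dnajc28).

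In the ER, Hspa5, which encodes BiP, the HSP70 of that compartment, stood at FPKM 257 and 320 in Six2TGC, against 306 and 321 in Six2Cre, with overlap and no call (log2 difference -0.13, limma adjusted p = 0.424). Its difference was 0.028 without Six2TGC replicate 1. Dnajc3 stood at 7.21 and 9.49 against 9.16 and 10.1. The Hspa13 values of the lines interleaved between 8.05 and 10.3. The reductase gene Dnajc10 stood at 35.8 and 37.2 against 26.8 and 35.1, also without a call (0.24). Upstream of Hspa5 and Hsp90b1 lie matches to the ER stress element, CCAAT and CCACG with any 9 bases between them on either strand, through which the unfolded protein response acts. They are shown in capitals in the 250 bases before the start, at chr2:34771840-34772089 (plus strand) and chr10:86705445-86705694 (minus strand), as the ER counterpart of the windows above.
Hspa5: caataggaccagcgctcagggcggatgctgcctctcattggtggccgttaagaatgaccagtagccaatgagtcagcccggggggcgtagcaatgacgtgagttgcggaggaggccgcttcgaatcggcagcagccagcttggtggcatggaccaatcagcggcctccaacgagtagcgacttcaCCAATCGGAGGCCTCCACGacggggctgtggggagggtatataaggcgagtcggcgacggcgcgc
Hsp90b1: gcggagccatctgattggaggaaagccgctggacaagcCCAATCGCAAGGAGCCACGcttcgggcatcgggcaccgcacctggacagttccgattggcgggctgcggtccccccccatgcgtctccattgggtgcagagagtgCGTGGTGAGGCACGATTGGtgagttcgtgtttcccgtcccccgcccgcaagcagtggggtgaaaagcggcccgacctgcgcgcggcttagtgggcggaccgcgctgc
The element was found for 3 of 68 members, Hspa5, Hsp90b1 and Dnajc3, all among the 11 ER members in the table, and for 0.130% of genes and 0.113% of promoters. Hsp90b1 holds it at both marked places, and none of the 3 genes had a call.

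BAG proteins, exchange factors of HSP70, gave 0 calls of 6 tested in limma and 0 in the authors' deposited table. At an unadjusted p under 0.05 in limma, 1 (16.7%) was lower, against 21.1% of all genes tested. Bag6, which guards membrane proteins on their way to the ER, stood at FPKM 141 and 146 in Six2TGC, against 150 and 150 in Six2Cre, and Bag1 at 81.4 and 78.7 against 95.2 and 88.5. Bag3, a heat-inducible member tied to autophagy, lay the other way from Hspa1a and Dnajb1. It stood at 18.2 and 17.1 in Six2TGC against 15.6 and 15.1 in Six2Cre, without overlap and without a call (log2 difference 0.19, limma adjusted p = 0.165). Bag2 (0.067), Bag4 (-0.097) and Bag5 (0.0051) differed little in mean.

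Small heat-shock proteins, which hold unfolded proteins without ATP, were sparse. Of 8 genes, 3 reached the level for testing. Hspb11, which encodes the intraflagellar transport protein IFT25 and is a chaperone in name, stood at FPKM 14.9 and 13.8 in Six2TGC against 20.9 and 26.1 in Six2Cre (log2 difference -0.67 ± 0.117 SE, limma adjusted p = 6.81e-03). Without Six2Cre replicate 2 it was -0.52 with no call, and q was 0.0959 in the authors' deposited table. Hspb1 (HSP27) stood at 3.78 and 4.13 against 4.60 and 6.09, without overlap or a call, and Hspb6 at 6.20 and 3.02 against 3.67 and 4.38.

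The 11 members below the level for testing were Hspb2, Hspb3, Hspb7, Hspb8, Hspb9, Dnajb7, Dnajb8, Dnajb13, Dnajc5b, Dnajc5g and Dnajc6. Hspb3, Dnajb8, Dnajc5b and Dnajc5g were listed at 0 in all 4 libraries. Dnajb7, Hspb2 and Hspb7 were listed at 0 in both Six2TGC libraries and at up to 0.330, 0.727 and 0.0790 in Six2Cre. The highest value in any library among the other 4 was 0.704, for Hspb9. Just above the level for testing lay Dnaja4, with a mean of 1.10.

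Chaperone genes outside the families were grouped by compartment too, to be read against the 13.5% of all genes called lower and the 10.8% called higher. Differences between these lists were not tested. Of 14 tested genes of the cytosolic chaperonin TRiC and of prefoldin, 8 were lower and 0 higher. Their median was -0.27, and all 14 had both Six2TGC libraries below both Six2Cre libraries, as had 36.4% of all genes tested. The largest falls there were Pfdn6 (-0.82) and Pfdn4 (-0.66), subunits of prefoldin. Of the 14, 11 had a mean log2(FPKM + 1) from 6 to 9, where 24.9% of all genes were lower. Under quantile normalization 4 of the 14 were lower, and the median was -0.15. Of 19 other cytosolic HSP90 and HSP70 partners, 5 were lower and 0 higher, among them Tomm34 (-0.39) and Ptges3 (-0.36), which encodes p23. Under quantile normalization 3 were lower and 1 higher. Of 11 other mitochondrial chaperones and proteases, 3 were lower and 0 higher, including the import motor gene Pam16 (-0.51) and Grpel1 (-0.45), the exchange factor of mortalin. Among other ER genes, 4 of 14 chaperones and folding enzymes were higher and 0 lower, with a median of 0.22. These were P4hb (0.43), the collagen chaperone gene Serpinh1 (0.34), Pdia6 (0.34) and Canx (0.26). The 2 genes with the largest change in each list are named, and Canx and Pdia6 were added after their values were seen.

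**Figure D5:**
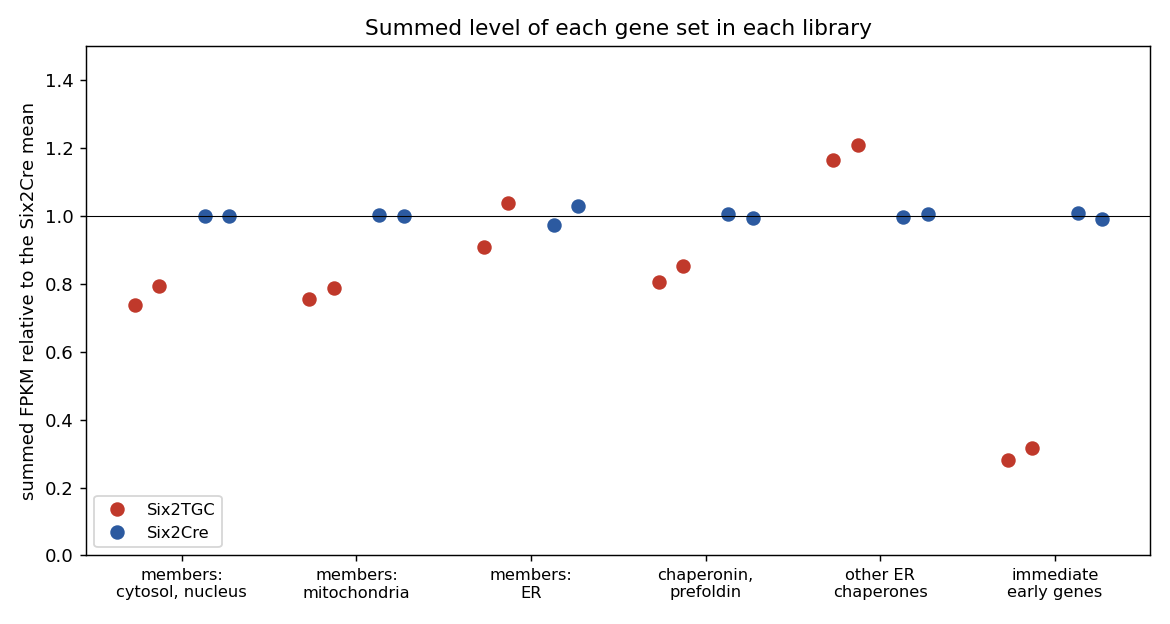
Summed FPKM of gene sets in each library divided by the Six2Cre mean of the set, with Six2TGC left of Six2Cre in each pair. Cytosolic and mitochondrial members and the chaperonin and prefoldin set lie below 1 in both Six2TGC libraries, ER members straddle 1, other ER chaperones lie above it, and immediate early genes lie lowest. Hsp90ab1 and Hspa8 make up most of the cytosolic sum.

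Other genes known to rise with heat did not share a direction: of 10 tested, 2 were higher and 1 lower. Ddit4 (1.03) and Ier5 (0.43) were higher in Six2TGC, and the polyubiquitin gene Ubb (-0.30), named after its value was seen, was lower. Immediate early genes, which respond within minutes to many stimuli and to tissue dissociation, also differed between the lines. Of these, 13 were lower in limma and 0 higher among 14 tested, the median was -1.61, and their FPKM summed to 1384 and 1556 in Six2TGC against 4955 and 4864 in Six2Cre. Nr4a1 (-3.33) and Btg2 (-2.79) led them. The part of immediate early genes in the heat-shock differences was not tested.

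In the authors' deposited table, 9 of 73 tested members were significantly lower and 1 higher in Six2TGC, where 6.52% and 6.94% of 12158 tested genes were. The 9 were Hspa1a, Hspa1b, Hspa8, Hsp90aa1, Dnajb1, Dnajb4, Dnajb9, Hspd1 and Hspe1, and the higher gene was Hspa4l. In the limma fits that each left out a library, 5 members were lower in all 4: Dnajb1, Dnajb4, Hsp90aa1, Hsp90ab1 and Hspe1.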

How the data were processed

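Polyadenylated RNA of FACS-isolated cells was sequenced in 4 libraries, grouped by their titles. Reads were aligned with HISAT2 and lines compared with Cuffdiff on mm10, per the submitters' processing notes; their versions and the annotation are not stated in what was read here. An FPKM for each gene in each library was deposited, with a p-value and a q-value from a comparison of the lines by the authors, per the file headers. No source says if strand was used in counting, so overlapping genes cannot be told apart, and 13 members share their listed locus with another gene. No counts are given; relative depth came from the most frequent ratio of values up to FPKM 0.4 (235 to 392 of 1479 to 1539 genes in the peak), and no counting interval can be given.

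Genes reaching a mean FPKM of 1 went into limma (version 3.58.1, under R version 4.3.3). The scale was log2(FPKM + 1), which understates changes of low genes, the empirical Bayes step was robust with a trend, tests were two-sided, and differences are Six2TGC minus Six2Cre. On 10 simulated sets of 11917 genes with 200 changed, the test recovered 86.9% of changes of 1 and 28.6% of changes of 0.5 on the log2 scale, with 4.90% false calls. Simulated spreads were drawn from the fitted model, and few genes were changed, whereas 24.3% were called in the data. These rates check the procedure and do not carry over to the 4 libraries. Folds are ratios of mean FPKM. Coordinates are those of the table, raised by 1 at the start; all 84 members were found in RefSeq genes of GRCm38.p6, 41 with the same start. Coding sequences were the longest open reading frames of GENCODE M21 transcripts, aligned with Biopython 1.88. Compartments were assigned by hand. Named genes were fixed members, called members, the 2 most abundant of each family and members significant in the authors' deposited table. Up to 2 called genes of each outside list were added, except for the lists of other kidney cells, whose genes are not named. Six2 is named besides, and other members are named for completeness. Members and lists were chosen with earlier results of these data known. Alternatives were pseudocounts of 0.1 and 0.5, other filters, an unweighted trimmed mean of M-values (trimming 0.3 of M and 0.05 of A at each end), quantile normalization, plain empirical Bayes, a replicate block, the authors' q-values and leaving out each library.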

Additional observations from a re-analysis of the deposited data

How the results depend on the processing

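Counts of lower members stayed between 10 and 16 under other pseudocounts, filters, scalings and empirical Bayes settings, against 14, and ranged from 7 to 17 when a library was left out. Higher members numbered 0 with no filter and 0 to 1 when a library was left out, against 2. The median of tested members ranged from -0.17 to -0.081 in those fits. Over all genes, 1286 higher and 1614 lower calls became 481 to 1222 and 472 to 1514. In the authors' deposited table, 1 member was higher and 9 lower, with 844 and 793 of all genes, and no median was computed there.

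Directions that turned belong to members with no call, apart from Hsp90ab1, which stood at 0.085 under quantile normalization. That setting also gave Bag6 0.072 and Hspa5 8.76e-05. When a library was left out, Hsph1 ranged from -0.65 to 0.017, Hspa4 from -0.29 to 0.023, Hspa5 from -0.28 to 0.028 and Dnaja2 from -0.25 to 0.044. Hsf1 ranged from -0.16 to 0.0088, Hsf2 from -0.12 to 0.020, Hsp90b1 from -0.068 to 0.12 and Dnajb11 from -0.060 to 0.13. The cause was not tested.

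With the replicate number as a block, 15 members were lower and 2 higher, and 1179 and 1534 of all genes; same-numbered libraries did not deviate together (r = -0.040 across 11917 genes). The block gave Hspa1b a call (limma adjusted p = 0.0398). With 2 libraries per line, small changes can be missed, and low genes are less precise in Six2TGC, whose libraries are shallower.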

Other observations

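Within Six2TGC the cytosolic members had larger differences between libraries than within Six2Cre, a comparison that was not tested. Of 44 tested cytosolic and nuclear members, 27 were higher in Six2TGC replicate 2 than in replicate 1, with a median of 0.095 on the log2(FPKM + 1) scale. In Six2Cre 19 of the 44 were higher in replicate 2, with a median of -0.022. The median size of the difference between libraries was 0.18 in Six2TGC and 0.10 in Six2Cre for these members, and 0.12 and 0.10 for all genes tested. All 84 members together made up 1.05% and 1.14% of summed FPKM in Six2TGC and 1.21% and 1.25% in Six2Cre, of which Hsp90ab1 and Hspa8 gave 45.2% and 44.8% of the members' sum in Six2TGC and 48.2% and 47.9% in Six2Cre.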
